A study of Mus musculus with 6 samples.

Results

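The insulin and insulin-like growth factor (IGF) signalling genes Igf1r, Irs2, Igf1, Insr and Foxo1, 5 of the 33696 genes counted in each library, were followed across tumour leukocytes. The set was selected on measured values: an earlier look at these libraries found Igf1r and Irs2 counts higher in T cells under both combination labels. The differences between these pairs of libraries are therefore given as a description. IGF1 is a secreted growth factor, made in tissues by stromal cells and by some macrophages, and it signals through the receptor tyrosine kinase IGF1R. The insulin receptor INSR is its close relative and can pair with it. Both receptors phosphorylate the docking protein IRS2, which recruits PI3K and so activates AKT. AKT in turn keeps the transcription factor FOXO1 out of the nucleus. In T cells FOXO1 is known for sustaining genes of the resting, recirculating state, and FOXO factors are known activators of Irs2 and Insr transcription.

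The cells were CD45-positive leukocytes sorted from mouse mammary tumours and profiled by droplet single-cell RNA sequencing of transcript 3′ ends, with 1 library for each treatment label. The labels are VC, MRX, CTX, Combined, ctxd18t and combod18t, and they are not spelled out. The series title names MERTK inhibition and cyclophosphamide, and d18 was read as day 18. According to the protocol, which is worded alike for all libraries, mice at day 7 received treatment 3 h before tissue was taken. It assigns Combined, CTX, MRX and VC to 4 barcode pools of a multiplexed run, and names no pool for the day 18 libraries. It also mentions spleens, although every library is labelled as mammary tumour. Mouse strain, tumour model, doses and the number of animals per library were not given in the sources used here, and the VC counts were not analysed here. With 1 library for each label there was no replicate check, so no p-value is given. Intervals cover counting error only, and label, run, day and animal cannot be told apart.

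After filtering, 25653 cells were kept, between 3845 (ctxd18t) and 8506 (CTX) for each library, with median depths of 6239 to 8940 unique molecular identifiers (UMIs) per cell. Between 95.5% and 98.3% of the kept cells of a library had a UMI of Ptprc, the gene for CD45, while epithelial-like and fibroblast-like cells made up 0.232% (MRX) to 3.90% (ctxd18t). Cell classes were named from marker genes, and all genes of the pathway were kept out of the clustering. T-like cells numbered 1842 in MRX, 1697 in CTX and 971 in Combined, and at day 18 1249 in ctxd18t and 2590 in combod18t. Resting CD4-like cells made up 48.8% of the T-like cells of combod18t and 9.55% to 17.4% in the other libraries, so the day 18 libraries differed strongly in T-cell makeup. The libraries CTX and combod18t shared 34 barcodes, and Combined and ctxd18t shared 21. Of the 51 of these kept in both libraries, 11 had the same class in both, and no ratio recomputed without them moved beyond its counting interval.

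For Igf1r and Irs2, which chose this gene set, the 250 bases before the RefSeq transcription start are shown first (assembly GRCm38.p6, 5′ to 3′ in the direction of transcription). Capitals mark matches to the 4 motifs searched on both strands: TTGTTTT, the core of insulin response sequences that bind FOXO factors, TGTTTAC, the forkhead core, TGACGTCA, the cAMP response element, and CACGTG, an E-box.
Igf1r, chr7:67952007-67952256, plus strand: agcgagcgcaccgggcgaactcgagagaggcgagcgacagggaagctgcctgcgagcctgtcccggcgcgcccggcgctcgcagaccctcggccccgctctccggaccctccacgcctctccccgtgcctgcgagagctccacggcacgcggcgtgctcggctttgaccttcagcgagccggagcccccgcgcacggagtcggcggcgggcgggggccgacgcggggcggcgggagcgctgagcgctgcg
Irs2, chr8:11008930-11009179, minus strand: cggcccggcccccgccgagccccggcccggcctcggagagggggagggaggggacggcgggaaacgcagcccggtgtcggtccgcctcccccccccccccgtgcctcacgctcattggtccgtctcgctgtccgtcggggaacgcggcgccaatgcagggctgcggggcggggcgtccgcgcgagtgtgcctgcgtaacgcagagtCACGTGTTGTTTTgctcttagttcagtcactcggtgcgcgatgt
In the Irs2 window the E-box lay 44 to 39 bases before the start, directly followed by TTGTTTT at 38 to 32 bases. The Igf1r window held none of the 4 motifs, nor did the windows of Igf1 and Foxo1, and Insr had no entry. Among 32536 promoter windows of this length, 8.01% held TTGTTTT, 6.04% held CACGTG, 3.17% held TGTTTAC and 1.56% held TGACGTCA. A match describes letters in a window and not binding. The Igf1r and Irs2 windows had GC contents of 77.6% and 72.8%, against a median of 52.4% over all windows.

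Igf1, the ligand, was counted rarely, and in 4 of 5 libraries most of its UMIs came from macrophages. Levels are given as CPM, the UMIs of a gene scaled to a fixed total of UMIs over the summed cells of a class. In monocyte-macrophage-like cells Igf1 stood at 2.52 CPM in MRX, 4.99 in CTX and 2.38 in Combined, and at day 18 6.91 in ctxd18t and 5.75 in combod18t, from 30, 257, 35, 80 and 18 UMIs. The CTX and ctxd18t intervals (4.40 to 5.64 and 5.48 to 8.60) lay above those of MRX and Combined (1.70 to 3.6 and 1.66 to 3.31), and the combod18t interval of 3.41 to 9.09 overlapped CTX, ctxd18t and MRX. The class held 76.3% of all Igf1 UMIs in CTX, where it was 51.6% of the cells, and 62.5% in MRX, where it was 27.1%. In combod18t it held 22.0% and was 7.05% of the cells, and 38 of the 82 UMIs there came from 1 fibroblast-like cell. The clusters left out for carrying markers of 2 classes held 19 of 82 Igf1 UMIs in combod18t and 14 of 62 in Combined. Neutrophil-like cells had 12.2 CPM in CTX, from 5 UMIs in 1 cell, and 4.33 CPM in MRX, from 6 UMIs. T-like cells held between 1 and 10 Igf1 UMIs in a library, never more than 1 in a cell, and stayed at or below 0.981 CPM.

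Within the macrophages Igf1 was highest in the cluster led by the chemokine genes Ccl8 and Ccl7 and the mannose receptor gene Mrc1. There it reached 4.83 CPM in MRX (551 cells), 22.2 in CTX (367 cells), 33.5 in Combined (50 cells), 14.9 in ctxd18t (308 cells) and 22.5 in combod18t (55 cells). MRX was the lowest of the 5, and its interval of 3.06 to 7.25 overlapped none of the others. The cluster held 79 of the 80 macrophage Igf1 UMIs in ctxd18t, 16 of 18 in combod18t, 23 of 30 in MRX and 17 of 35 in Combined. In CTX it held 92 of 257, and the cluster led by C1qa, C1qc and C1qb, genes of the complement component C1q, held another 93. In that C1q-led cluster Igf1 was 5.64 CPM in CTX and between 0 and 0.929 CPM in the other libraries.

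**Figure D1:**
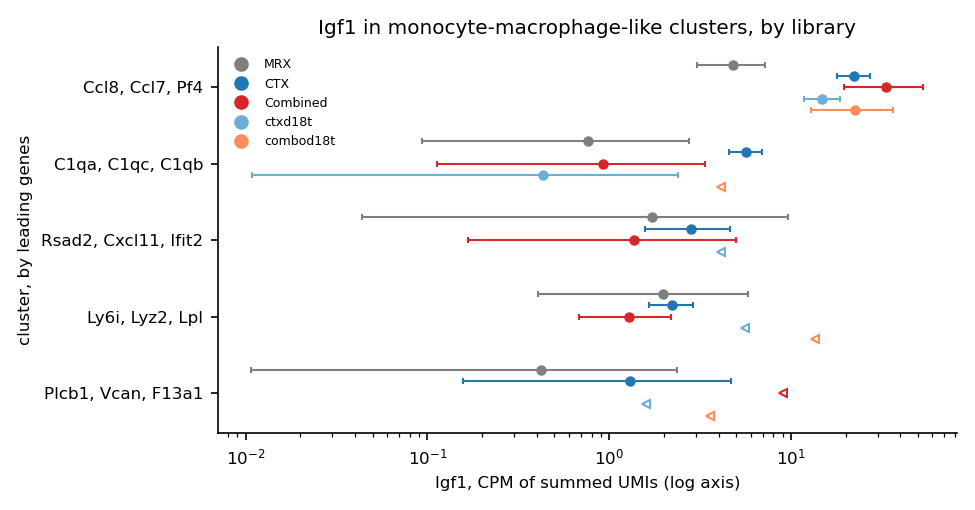
Igf1 in 5 monocyte-macrophage-like clusters, named by their leading genes; the x axis is CPM of summed UMIs on a log scale, points are libraries with at least 20 cells, bars are exact Poisson intervals, and open triangles mark the upper bound where no UMI was counted. The Ccl8-led cluster sits highest in each library, from 4.83 CPM (MRX) to 33.5 CPM (Combined).

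The Ccl8-led cluster was 50 of 1199 macrophages in Combined and 367 of 4387 in CTX, and the class and the cluster gave different orders. Over the class, the log2 ratio of CPM + 1 between Combined and CTX was -0.82, with an interval of -1.62 to -0.55 for the ratio without the added 1. Within the Ccl8-led cluster it was 0.57, with an interval of -0.24 to 1.35 that includes 0. For combod18t against ctxd18t the class ratio was -0.23 (-1.09 to 0.49), and the ratio in the Ccl8-led cluster 0.57 (-0.28 to 1.38), again including 0. With both libraries weighted to the same mix of sub-clusters the day 18 class ratio was 1.37, over the 186 of 272 and 314 of 786 cells in sub-clusters with at least 20 cells in each. No interval is given for this value, and the whole class held only 18 Igf1 UMIs in combod18t and 80 in ctxd18t. Macrophages with a UMI of C1qa had an Igf1 UMI in 5.31% of cells against 1.63% of those without in CTX, 3.53% against 0.726% in Combined and 6.85% against 0.765% in ctxd18t, with intervals apart. In MRX (2.39% against 0.821%) and combod18t (5.10% against 0.870%) the intervals overlapped.

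Fibroblast-like cells gave the highest Igf1 values, from very few cells. Their level was 50.9 CPM in CTX (40 cells), 210 in Combined (7 cells), 45.9 in ctxd18t (98 cells) and 398 in combod18t (26 cells), with 0 UMIs in 3 MRX cells. The 38 Igf1 UMIs of combod18t came from a single cell, and the 71 Insr UMIs of the same group from another. No fibroblast-like difference between libraries is therefore given. In ctxd18t the 38 UMIs came from 7 cells, or 28.8% of the Igf1 UMIs of that library in 2.55% of its cells.

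Igf1r, the receptor, was highest in neutrophil-like cells among the cell classes in every library. It stood at 1289 CPM in MRX, 484 in CTX and 652 in Combined, and at day 18 936 in ctxd18t and 986 in combod18t, and between 60.4% and 75.6% of these cells had a UMI. CTX was lowest and MRX highest, with no overlap of their intervals (418 to 556 and 1230 to 1350). Plasmacytoid dendritic (pDC-like) cells had 79.3 CPM (Combined) to 164 CPM (MRX). Monocyte-macrophage-like cells had 56.5 CPM (CTX) to 99.3 CPM (MRX), and B-like cells 1.5 to 8.71 CPM, with a UMI in 0.627% to 4.63% of cells.

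MRX exceeded CTX in Igf1r in several classes at once. Against CTX, MRX was higher in neutrophil-like cells (log2 ratio of CTX to MRX -1.41, interval -1.63 to -1.20) and in monocyte-macrophage-like cells (-0.80, -0.91 to -0.72). In type 2 conventional dendritic (cDC2-like) cells Igf1r was 58.2 CPM in MRX and 27.0 in CTX, and in regulatory-like T cells 87.1 and 40.7, with no overlap of the intervals in either case. Resting CD8-like T cells went the other way, at 31.7 CPM in MRX and 35.4 in CTX, and so did B-like cells, at 2.79 and 4.04 CPM, both with overlapping intervals. Combined was also below MRX in neutrophil-like cells (-0.98, -1.20 to -0.77) and in monocyte-macrophage-like cells (-0.61, -0.75 to -0.50). Both comparisons use the MRX library, so they are not independent. Handling and heat-shock genes moved with them in macrophages, summing to 4288 CPM in MRX, 3192 in CTX and 3298 in Combined. Their part in the Igf1r values was not tested. The macrophages of these libraries also sat in different clusters: the cluster led by Ly6i and Lyz2 held 180 of 1400 in MRX and 2210 of 4387 in CTX, and the Ccl8-led cluster 551 and 367. Within each Igf1r was again lower in CTX than in MRX, with ratios of -0.60 (-0.86 to -0.35) and -0.81 (-1.06 to -0.60).

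**Figure D2:**
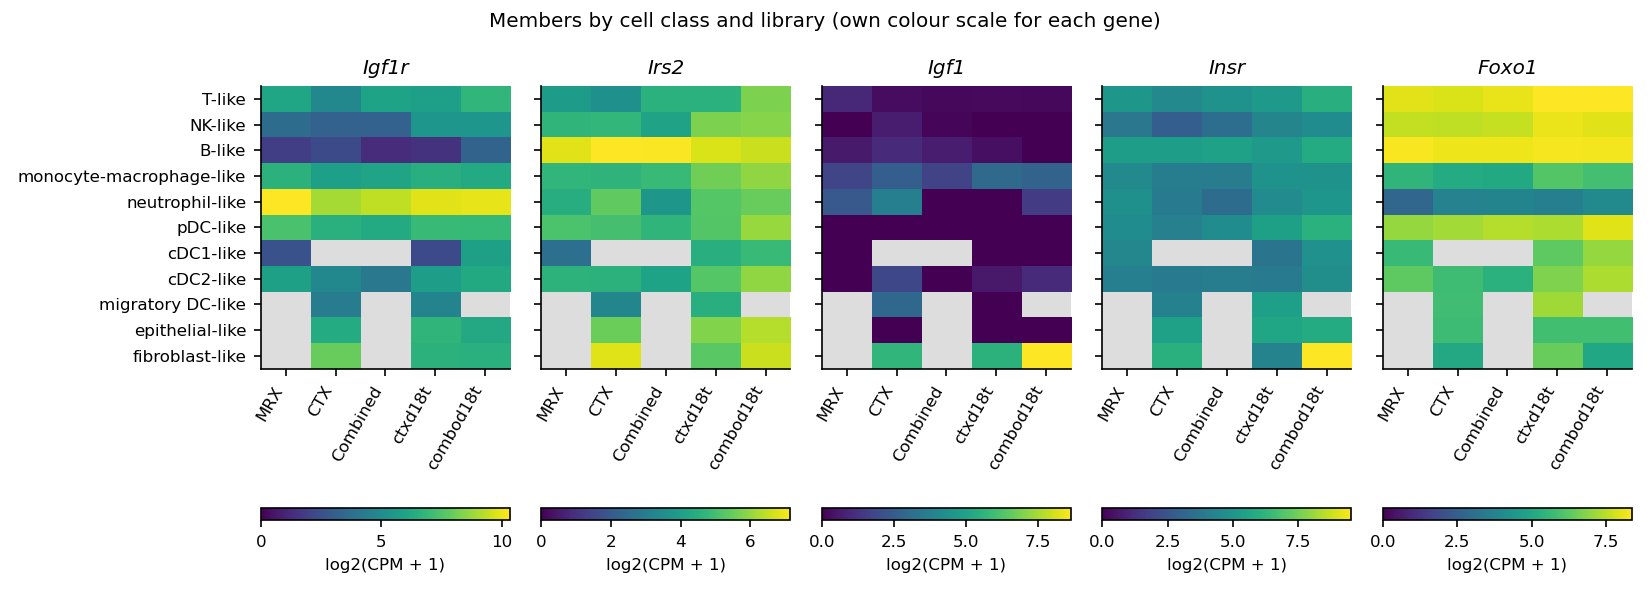
Each member by cell class (rows) and library (columns), as log2(CPM + 1) on a colour scale of its own; grey marks under 20 cells. Igf1r is brightest in neutrophil-like cells, Irs2 in B-like cells, and Foxo1 in T-like and B-like cells. The bright fibroblast-like values of Igf1 and Insr in combod18t come from 1 cell each.

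In T-like cells as a whole, Igf1r was 66.5 CPM in MRX, 26.9 in CTX and 62.9 in Combined, and at day 18 56.2 in ctxd18t and 109 in combod18t. The intervals of CTX (24.2 to 29.9) and combod18t (105 to 114) overlapped no other library. The log2 ratio of CPM + 1 was 1.19 for Combined against CTX (1.02 to 1.43) and 0.95 for combod18t against ctxd18t (0.83 to 1.09). A fold of at least 0.5 on this scale was used as the call. Of the 4 members with enough counts in T-like cells, 2 (Igf1r and Irs2) were higher by it in Combined than in CTX, where 3.72% of all 8194 tested genes were higher and 1.84% lower. In combod18t against ctxd18t, 3 of 4 (Igf1r, Irs2 and Insr) were higher, where 9.06% of 8424 genes were higher and 13.6% lower. Nothing is read from these counts, since the pairs were used to choose the genes. The balance over all genes also moved with the scaling: of the genes past the fold in Combined against CTX, 66.9% were higher with CPM and 37.5% with median-of-ratios scaling, which shifted all ratios by -0.10. Igf1 had too few UMIs to be tested.

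A gamma-delta-like sub-cluster carried a large part of the T-cell Igf1r. It was named from Trdc and other gamma-delta receptor and interleukin-17 genes, and had 35 cells in MRX, 6 in CTX and 38 in Combined, and at day 18 9 in ctxd18t and 60 in combod18t. Its Igf1r level was 1075 CPM in MRX, 306 in CTX and 785 in Combined, and at day 18 751 in ctxd18t and 1209 in combod18t, and 34 of 35, 3 of 6, 34 of 38, 8 of 9 and 58 of 60 cells had an Igf1r UMI. These levels were of the order of those in neutrophil-like cells, so neutrophil genes were looked at in the same cells. Csf3r and Cxcr2, which define neutrophils, had 0 UMIs in the sub-cluster in all 5 libraries. The neutrophil genes S100a9, S100a8 and Hdc had few, at most 12, 2 and 1 UMIs in a library, while the T-cell gene Cd3e was 172 CPM in CTX and 603 to 1146 CPM in the others. For comparison, 4 of 311 B-like cells of MRX had an Igf1r UMI, at a median depth of 4939 UMIs against 6708 in the gamma-delta-like cells.

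The sub-cluster was also unequally represented. It made up 3.91% of the T-like cells of Combined (exact binomial interval 2.78% to 5.33%) and 0.354% of those of CTX (0.130% to 0.768%). At day 18 it was 2.32% of combod18t (1.77% to 2.97%) and 0.721% of ctxd18t (0.330% to 1.36%), and in MRX 1.90%. It held 48.7% of the T-cell Igf1r UMIs in Combined, 40.1% in MRX and 31.3% in combod18t, against 4.53% in CTX and 10.1% in ctxd18t. Whether more such cells were present or more were captured cannot be told apart with 1 library for each label. Summed handling and heat-shock genes were 2225 CPM in these cells in MRX and 3530 to 5783 CPM in the other 4 libraries, and over all T-like cells 1916 to 2482 CPM, highest in Combined. Macrophage transcripts summed to 442 CPM (combod18t) to 681 CPM (Combined) in T-like cells. Their part in the Igf1r values was not tested.

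Without the gamma-delta-like cells, an alternative added after the data were seen, Igf1r in T-like cells was 40.8 CPM in MRX, 25.8 in CTX and 33.6 in Combined, and at day 18 50.9 in ctxd18t and 77.3 in combod18t. The log2 ratio fell to 0.37 (0.13 to 0.62) for Combined against CTX and to 0.59 (0.46 to 0.74) for combod18t against ctxd18t. With both libraries of a pair weighted to the same mix of sub-clusters, over those with at least 20 cells in each, it was 0.26 and 0.08. This weighting used 851 of 971 T-like cells of Combined, 1519 of 1697 of CTX, 2365 of 2590 of combod18t and 1038 of 1249 of ctxd18t, and left out the gamma-delta-like cells because CTX and ctxd18t had too few.

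**Figure D3:**
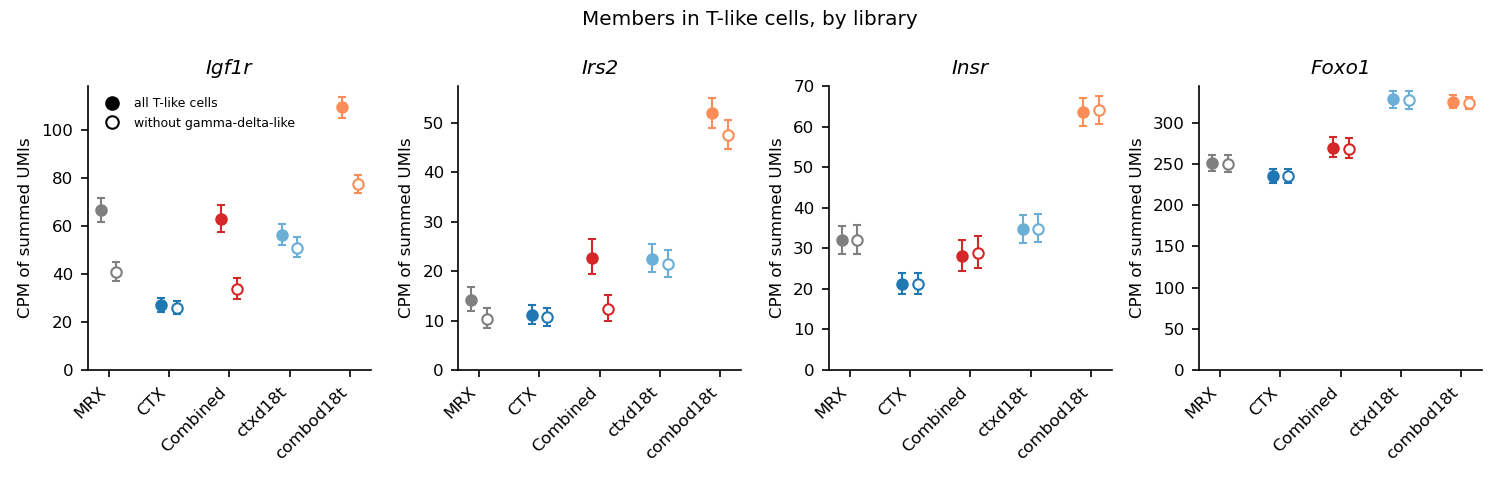
Igf1r, Irs2, Insr and Foxo1 in T-like cells of the 5 libraries, as CPM of summed UMIs with exact Poisson intervals; filled points use all T-like cells and open points leave out the gamma-delta-like cells. The open points fall well below the filled ones for Igf1r in MRX, Combined and combod18t and for Irs2 in Combined, and stay beside them for Insr and Foxo1.

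Within named T subsets the Igf1r differences were uneven in size and not of 1 direction. Resting CD8-like cells were the clearest case, at 60.1 CPM in Combined against 35.4 in CTX (log2 ratio 0.75, 0.08 to 1.45) and 96.9 in combod18t against 36.6 in ctxd18t (1.38, 0.96 to 1.88). The day 18 libraries filled this subset from different sub-clusters: a single one held 343 of 367 cells in combod18t but 65 of 153 in ctxd18t, and within it the ratio was 1.48 (0.89 to 2.18). Regulatory-like cells had 42.6 CPM against 40.7 in the first pair (0.07, -0.60 to 0.74) and 162 against 130 at day 18 (0.31, with a lower bound just above 0). Resting CD4-like cells, the bulk of the combod18t T cells, had 133 CPM against 97.5 in the first pair (0.45, -0.04 to 0.93) and 90.1 against 86.0 at day 18 (0.07, -0.23 to 0.37). In cycling cells the pairs differed in sign, with 4.89 CPM in Combined against 9.41 in CTX (-0.82, -2.04 to 0.02) and 21.6 in combod18t against 7.02 in ctxd18t (1.5, 0.61 to 2.73). The makeup of the cycling cells differed as well. A single sub-cluster held 74 of 159 in Combined, 222 of 390 in CTX, 40 of 68 in combod18t and 74 of 99 in ctxd18t. Effector CD8-like cells were low, with 2.43 to 4.74 CPM in MRX, CTX and Combined and 19.6 and 22.5 CPM at day 18. This subset too was filled from different sub-clusters: a single one held 219 of 417 cells in ctxd18t and 207 of 387 in combod18t, but 12 of 705 in MRX, 35 of 265 in CTX and 3 of 133 in Combined. Igf1r in it was 6.34 CPM in CTX, 23.1 in ctxd18t and 33.3 in combod18t, with 0 UMIs in MRX and Combined. In each of the 5 libraries the gamma-delta-like cells stood first among the named subsets, with an interval above all the others, and effector CD8-like or cycling cells last. Sub-clusters left without a subset name were not ranked.

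**Figure D4:**
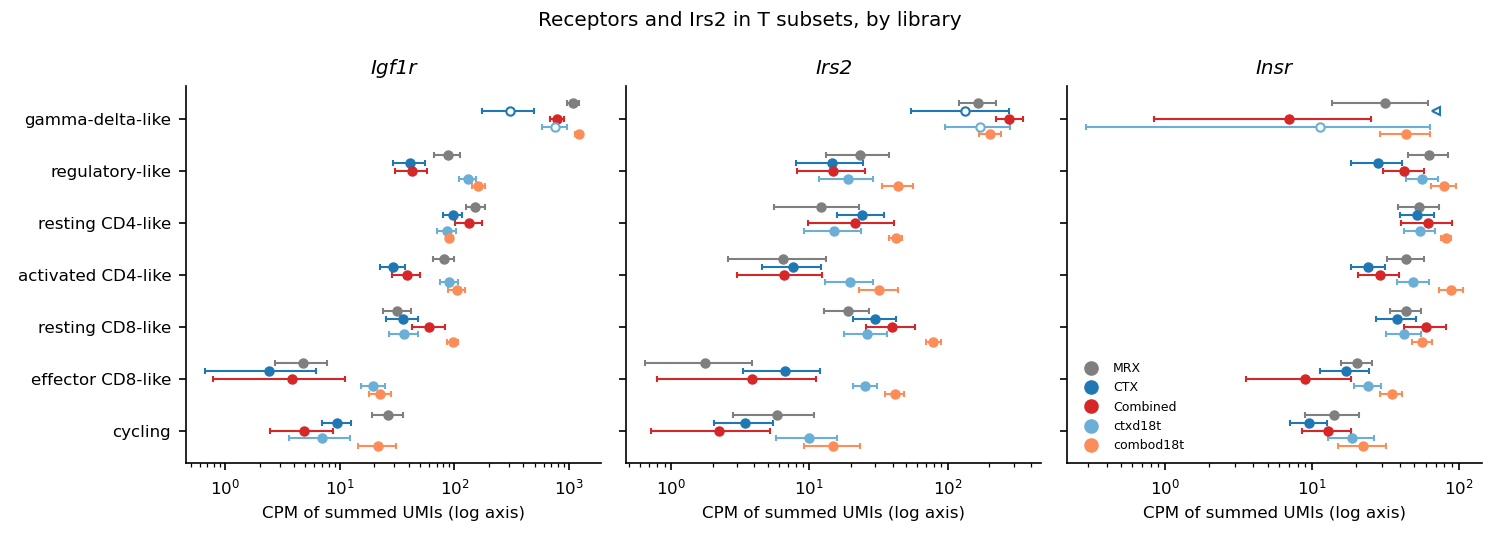
Igf1r, Irs2 and Insr in 7 T subsets, as CPM of summed UMIs on a log axis with exact Poisson intervals; colours are libraries, open circles mark under 20 cells and the open triangle an upper bound with no UMI. The gamma-delta-like Igf1r values, 306 to 1209 CPM, lie right of all other subsets, while their Insr values, 0 to 43.9 CPM, do not.

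Insr, the insulin receptor, was like Igf1r lowest in CTX and highest in combod18t T-like cells. Unlike Igf1r, little of it came from the gamma-delta-like cells in Combined and combod18t. In T-like cells it was 32.0 CPM in MRX, 21.2 in CTX and 28 in Combined, and at day 18 34.7 in ctxd18t and 63.6 in combod18t. The combod18t interval of 60.3 to 67.0 lay above all other libraries, and CTX (18.8 to 23.9) was lowest, just under the 24.3 at which the Combined interval began. The log2 ratio was 0.39 (0.14 to 0.67) for Combined against CTX and 0.86 (0.71 to 1.04) for combod18t against ctxd18t. The day 18 ratio was 0.86 without the gamma-delta-like cells and 0.76 with the same mix of sub-clusters. The gamma-delta-like cells held 27 of the 1385 Insr UMIs of combod18t and 2 of 206 in Combined.

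By subset, Insr at day 18 was 89.1 CPM in combod18t against 49.1 in ctxd18t in activated CD4-like cells (log2 ratio 0.85, 0.41 to 1.32). Resting CD4-like cells had 82.3 against 54.9 CPM (0.57, 0.22 to 0.96), and effector CD8-like cells 35.0 against 24.1 CPM (0.52, 0.15 to 0.94). In the sub-cluster that held 1101 of the 1263 resting CD4-like cells in combod18t and 77 of 188 in ctxd18t, Insr was 82.3 against 35.8 CPM (1.18, 0.57 to 1.9). Handling and heat-shock genes summed to 1425 CPM in combod18t and 2791 in ctxd18t resting CD4-like cells, and to 1638 and 2053 in resting CD8-like cells. Their part in the Insr and Irs2 values of these subsets was not tested. All 6 subsets with at least 20 cells in each library were higher in combod18t, and in cycling and resting CD8-like cells the interval included 0. B-like cells had 57.5 CPM in combod18t against 33.5 in ctxd18t (0.76, 0.48 to 1.07), whereas monocyte-macrophage-like cells had 29.1 against 27.9 (0.06, -0.29 to 0.40). In Combined against CTX the ratio was positive in 5 of the 6 T subsets, and effector CD8-like cells went the other way, at 8.93 against 17 CPM from 7 and 28 UMIs (-0.86, -2.37 to 0.30). The interval of each of the 6 included 0. In the same pair NK-like cells had 9.98 CPM against 6.13 (0.62, 0.10 to 1.34) while the ratio in macrophages, at 15.1 CPM in CTX, had an interval of -0.22 to 0.22.

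Irs2, the docking protein, was highest among leukocyte classes in B-like cells, at 113 CPM in MRX, 141 in CTX and 136 in Combined, and at day 18 106 in ctxd18t and 94.7 in combod18t. The B-like ratios were near 0 in both pairs, -0.05 (-0.25 to 0.15) and -0.16 (-0.36 to 0.04). B-like cells thus combined the highest Irs2 with the lowest Igf1r of the larger classes.

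In T-like cells Irs2 was 14.2 CPM in MRX, 11.1 in CTX and 22.7 in Combined, and at day 18 22.6 in ctxd18t and 52.1 in combod18t. Combined and ctxd18t stood at the same level, above CTX and MRX, and combod18t was highest, with an interval of 49.1 to 55.2. The log2 ratio was 0.97 (0.70 to 1.36) for Combined against CTX and 1.17 (1.01 to 1.41) for combod18t against ctxd18t. The gamma-delta-like cells had 279 CPM of Irs2 in Combined and held 80 of its 167 T-cell Irs2 UMIs, but 7 of 146 in CTX. Without them the first ratio was 0.19 (-0.19 to 0.61), and with the same mix of sub-clusters -0.06.

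The day 18 Irs2 ratio changed less. It was 1.12 (0.95 to 1.36) without the gamma-delta-like cells and 0.94 with the same mix of sub-clusters and positive in each of the 6 other subsets. Resting CD8-like cells had 78.7 CPM in combod18t against 25.9 in ctxd18t (1.57, 1.08 to 2.17) and resting CD4-like cells 42.1 against 15.1 (1.42, 0.81 to 2.23). Within the sub-cluster that held 343 of 367 resting CD8-like cells in combod18t and 65 of 153 in ctxd18t, the ratio was 1.2 (0.59 to 1.93). Within the one that held 1101 of 1263 resting CD4-like cells in combod18t and 77 of 188 in ctxd18t, it was 0.84 (0.10 to 1.76). Regulatory-like cells had 43.6 against 18.9 (1.17, 0.47 to 2) and effector CD8-like cells 41.5 against 25.4 (0.69, 0.34 to 1.09). In activated CD4-like and cycling cells the ratios were 0.66 and 0.54, with intervals that included 0. In the first pair the interval of each of these 6 subsets included 0.

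Outside T cells, Irs2 was also higher in combod18t than in ctxd18t in pDC-like cells (65.0 against 36.6 CPM, 0.81, 0.23 to 1.44) and in cDC2-like cells (61.0 against 37.4 CPM, 0.69, 0.19 to 1.22). Monocyte-macrophage-like cells had 61.7 against 47.2 CPM (0.38, 0.14 to 0.62). Their level was lower in MRX, CTX and Combined, at 25, 24.3 and 27.9 CPM. NK-like cells were lower in Combined than in CTX, at 16.3 against 25.8 CPM (-0.63, -1.02 to -0.32), and had 56.9 CPM in combod18t against 52.9 in ctxd18t. In neutrophil-like cells of Combined and CTX the ratio was -1.64 (-3.74 to -0.10), from 4 and 17 UMIs.

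Of the 4 members tested in monocyte-macrophage-like cells, none passed the fold of 0.5 in either pair. In Combined against CTX 1.76% of 7575 genes were higher and 2.80% lower, and at day 18 the shares were 5.55% and 5.58% of 8086 genes.

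Foxo1 varied least between libraries of the 4 members tested in T-like cells. It stood at 251 CPM in MRX, 236 in CTX and 270 in Combined, and at day 18 329 in ctxd18t and 326 in combod18t. The day 18 libraries lay above the other 3 and overlapped each other. The log2 ratio was 0.20 (0.11 to 0.28) for Combined against CTX and -0.01 (-0.07 to 0.04) for combod18t against ctxd18t. Behind the flat day 18 total, effector CD8-like cells were higher in combod18t (460 against 386 CPM, 0.25, 0.15 to 0.35) and resting CD8-like cells lower (261 against 316 CPM, -0.27, -0.45 to -0.10). In the resting CD8-like sub-cluster that held most of these cells in combod18t (343 of 367, against 65 of 153), the ratio was -0.36 (-0.58 to -0.13). Regulatory-like cells had a ratio of 0.30 (0.11 to 0.50). B-like cells had 281 to 314 CPM, NK-like cells 188 to 276, pDC-like cells 129 to 249 and macrophages 33.0 to 68.5. Neutrophil-like cells, the class with the most Igf1r, had the least Foxo1, at 5.77 to 14.6 CPM.

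Foxo3, a relative of Foxo1, was 43.3 CPM in ctxd18t and 84.6 in combod18t T-like cells (log2 ratio 0.95), and its ratio was positive in each of the 6 subsets. In Combined it was 32.0 CPM against 27.1 in CTX (0.23, with an interval from just below 0 to 0.48), and effector CD8-like cells went the other way, at 16.6 against 24.3 CPM (-0.53). A list of 10 genes known to depend on FOXO1 in T cells was counted in the same way. In Combined against CTX 0 of 10 passed the fold in either direction. In combod18t against ctxd18t 5 of 10 were higher and 0 lower, where 9.06% of all tested genes were higher and 13.6% lower. Among the 5 were Bach2, a repressor of effector differentiation (1.54), Il7r, the interleukin-7 receptor (1.27), S1pr1, the tissue-exit receptor (1.24), and Ccr7, a chemokine receptor of lymph node homing (0.79). The list's median was 0.56 against -0.04 for all tested genes. Of 12 handling and heat-shock genes, 1 was higher and 5 were lower in the same comparison, with a median of -0.37, and their part in these values was not tested. Resting CD4-like cells were 48.8% of combod18t T-like cells and 15.1% of ctxd18t. With the same mix of sub-clusters Bach2 (0.51) and Il7r (0.72) still passed the fold, while S1pr1 (0.20) and Ccr7 (0.15) did not. The count over all 10 genes is not given with this mix. Bach2 and Il7r were higher in each of the 6 subsets, whereas Klf2 was lower (-0.73 and -0.42) within resting CD4-like and resting CD8-like cells.

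Of the other 75 genes of the pathway list, 53 were tested in Combined against CTX. There 1 (1.89%) was higher and 0 lower, near the 3.72% and 1.84% of all genes. It was Socs1, a feedback inhibitor of cytokine and insulin signalling, with 182 CPM in Combined against 101 in CTX (0.84). The median of the 53 was 0.18, against 0.10 for all tested genes. At day 18, 12 of 54 (22.2%) were higher and 2 (3.70%) lower, against 9.06% and 13.6% of all tested genes, and the median was 0.21 against -0.04. The 12 included the 5 FOXO-dependent genes and Foxo3. The other 6 were Pik3r3 (1.60) and Pik3ip1 (0.84), a subunit and an inhibitor of PI3K, Sesn2 (1.05) and Sesn1 (0.63), inhibitors of mTORC1, Rictor (0.58), a core protein of mTORC2, and Trib2 (0.89), a pseudokinase. Pik3r3 (1.13) and Sesn2 (0.97) passed the fold with the same mix of sub-clusters, while Rictor (0.37), Sesn1 (0.29), Pik3ip1 (0.07) and Trib2 (-0.32) did not. The 2 lower genes were Igfbp7, an IGF-binding protein (19.7 CPM in ctxd18t, 9.73 in combod18t, -0.95), and Trib1, another pseudokinase (-0.81).

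**Figure D5:**
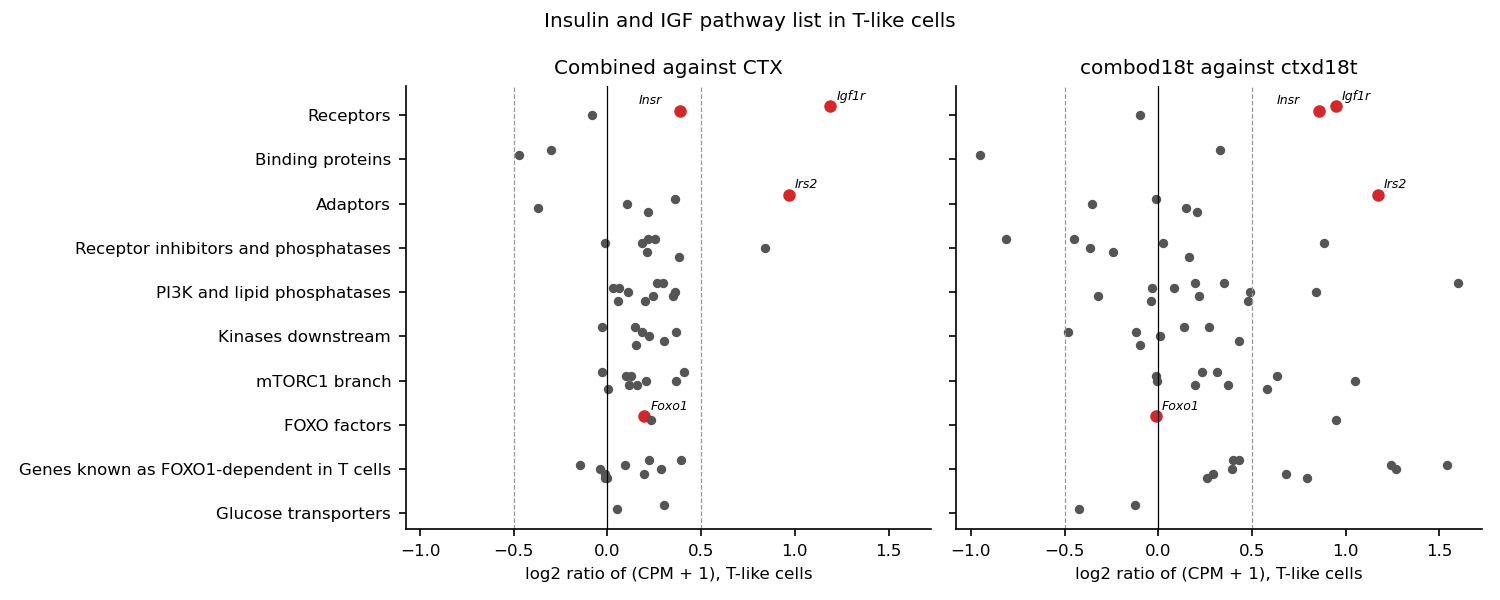
Log2 ratio of (CPM + 1) in T-like cells for each tested gene of the pathway list, by role; the left panel is Combined against CTX and the right panel combod18t against ctxd18t, red points are members, and dashed lines mark 0.5 in size. On the left Igf1r, Irs2 and 1 grey point (Socs1) lie past the line. On the right 15 of 58 points lie past it on the higher side and 2 on the lower side.

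The remaining ligands were all but missing: Igf2 had at most 0.950 CPM in macrophages, and Ins1 and Ins2 had no UMI in T-like cells or macrophages. Among the binding proteins in macrophages, Igfbp6 was lower under both combination labels. It was 49.1 CPM in MRX, 11.9 in CTX and 5.17 in Combined, and at day 18 30.8 in ctxd18t and 10.5 in combod18t, with ratios of -1.06 and -1.46. The makeup of the class differed as well: the Ccl8-led cluster was 551 of 1400 macrophages in MRX, 367 of 4387 in CTX and 50 of 1199 in Combined, and at day 18 308 of 786 in ctxd18t and 55 of 272 in combod18t. With the same mix of sub-clusters the Igfbp6 ratios were -1.09 and -0.88, the second over 186 of 272 and 314 of 786 cells. Igfbp4 was 7.69 to 29.1 CPM in macrophages and 45.9 to 156 CPM in T-like cells, where it was highest in combod18t. Of the pathway list without the members, 49 genes were tested in macrophages in Combined against CTX, and 4 (8.16%) were higher and 3 (6.12%) lower, against 1.76% and 2.80% of all tested genes. Of all calls there 38.6% were in the higher direction, and 21.6% with median-of-ratios scaling. At day 18, 3 of 54 (5.56%) were higher and 6 (11.1%) lower, against 5.55% and 5.58% of all tested genes. Among the 6 were 3 inhibitors of cytokine and receptor signalling, Socs1 (75.0 CPM in ctxd18t, 26.8 in combod18t), Socs2 (17.8 and 6.39) and Socs3 (238 and 144), named after their values were seen. Slc2a1, a glucose transporter named in the same way, was 126 CPM in CTX and 196 in Combined (0.64), but 136 in ctxd18t and 73.5 in combod18t (-0.88, -1.09 to -0.68). Irs1 and Irs4 had 0 UMIs in T-like cells, so Irs2 was the one of these 3 detected there.

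The genes of most alike pattern were named by the highest Pearson r of log2(CPM + 1) over 36 class-by-library sums. These sums share libraries and classes, so the r values are descriptions without a p-value. For Igf1r they were Dhrs7 (0.88), Tmem38b (0.88), Svil (0.87), P4ha1 (0.86) and Cd44 (0.86). For Irs2 they were Ppp3ca (0.85), the B-cell genes Ms4a1, Cr2 and Pax5 (0.82 each), and 2610037D02Rik (0.82). For Igf1 they were Flrt2 (0.88), the chemokine genes Ccl7 (0.84) and Ccl2 (0.83), Zfpm2 (0.77) and Ctsk (0.77). Igf1r and Foxo1 ran in opposite directions over the classes (r = -0.72), and Igf1r and Irs2 did so weakly (-0.39). Over 31 sums by T subset and library, the r of Igf1r was positive instead. It was 0.75 with Irs2, 0.80 with Insr and 0.22 with Foxo1.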

How the data were processed

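Leukocytes from 5 of 6 samples were analysed. The deposited matrices hold raw UMI counts of 33696 genes by cell, and per the file headers they were written by Cell Ranger 9.0.1. The submitters' processing notes also name GRCm39 and Seurat 5.2.0, with no role given. From these counts, cells with at least 200 genes and at most 15% mitochondrial UMIs were kept. Cells with a doublet score above the cut for the highest 5% of their library were removed. This cut was used because the automatic threshold marked between 0 and 6 barcodes. Scores at the cut were kept, so under 5% were removed, from 160 cells in combod18t to 392 in CTX. Clusters (Python 3.11.15, scanpy 1.11.5, leidenalg 0.10.2, resolution 1, 2000 variable genes, 30 components) were computed without the pathway genes and named from marker lists. The scoring rule was set, and an ILC2-like list dropped, after the data were seen. Clusters carrying markers of 2 classes at high depth, between 34 and 475 cells in a library, were left out.

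UMIs were summed by class and library and given as CPM with exact Poisson intervals. Shares have exact Clopper-Pearson intervals. Ratios are log2(CPM + 1), with a conditional binomial interval (95%) for the ratio without the added 1, so at few UMIs the ratio can lie outside it. All intervals cover counting error only. A gene was tested with at least 20 UMIs in a pair of libraries and 10 CPM in 1 of them, and called at a log2 ratio of 0.5 in size. Pathway genes are named where called, or highest of their role. Genes of like pattern are the 5 of highest correlation over sums with at least 50 cells, among genes reaching 50 CPM. Some genes of the lists and clusters are not reported here by name. The members and lists were chosen with earlier results of these data known. Promoter windows come from RefSeq (GRCm38.p6), which is not the build named for the counts, and 4 of the 5 members had one.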

Additional observations from a re-analysis of the deposited data

Results flagged for a closer look

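Igf1r in monocyte-macrophage-like cells moved in opposite directions in the 2 pairs of libraries that share no sample. Its log2 ratio was 0.19 (0.09 to 0.30) for Combined against CTX and -0.22 (-0.43 to -0.02) for combod18t against ctxd18t. Both intervals leave out 0, but they cover counting error only, and the difference between the pairs was not tested. Both ratios are under the fold used as a call, and in the Ccl8-led macrophage cluster the signs were the other way round, at -0.93 (-1.82 to -0.21) and 0.12 (-0.25 to 0.47).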

How the results depend on the processing

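For Igf1r in Combined against CTX (1.19), the ratio was 0.98 with a pseudocount of 10 CPM, 0.98 as a mean over cells, 0.37 without the gamma-delta-like cells, 0.24 without these and an Il17f-led sub-cluster, and 0.26 with the same mix of sub-clusters. For combod18t against ctxd18t (0.95) it was 0.80 as a mean over cells, 0.59 and 0.64 without those sub-clusters, and 0.078 with the same mix. Irs2 in Combined against CTX (0.97) was 0.63 with a pseudocount of 10 CPM, 0.19 and 0.14 without those sub-clusters, and reversed to -0.064 with the same mix. At day 18 (1.17) it was 0.93 with that pseudocount and 0.94 with the same mix. Foxo1 in Combined against CTX (0.20) was 0.10 with median-of-ratios scaling. Insr (0.39) was 0.12 with cells thinned to 1000 UMIs, on 26 and 42 UMIs. Igf1 in macrophages (-0.82) was -0.28 with a pseudocount of 10 CPM and -1.66 after thinning, on 1 and 21 UMIs. At day 18 (-0.23) it was 0.75 after thinning, on 3 and 5 UMIs, and 1.37 with the same mix. With the same mix at day 18, Trib2 also reversed (-0.32). The 305 genes higher in Combined than in CTX became 154 with median-of-ratios scaling, 85 with a pseudocount of 10 CPM and 1083 with no filter on low counts. The 763 at day 18 became 1579 with no filter. Of the genes past the fold in macrophages, 38.6% were higher in Combined than in CTX with CPM and 21.6% with median-of-ratios scaling. Apart from the alternatives that reweight or drop cells by construction, the cause was not tested. Leaving out the sub-clusters named here, those led by genes of another class, or the shared barcodes was chosen after seeing the data. No paired analysis was possible because each label has 1 library, and for the same reason no replicate could be left out.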
